A study of Mus musculus with 8 samples.

Results

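The genes described here are 10 transcription factor genes known to promote fat cell formation upstream of or beside PPARγ, namely *Klf4*, *Klf5*, *Klf6*, *Klf15*, *Egr2*, *Ebf1*, *Ebf2*, *Zfp423*, *Srebf1* and *Nr1h3*. They were taken by symbol from the 41325 gene symbols that each library lists, without a filter on their values. The set was chosen with earlier results of these data known. Expression is given as RPKM (reads per kilobase of exon, scaled to the mapped reads of the library), a scale on which different genes can be compared. Of the 41325 symbols, 11513 had an RPKM over 1 in at least 1 library and are called expressed here, and 9 of the 10 factors were among them. The exception was *Ebf2*.

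RNA-seq was carried out in C3H10T1/2, a line of mouse mesenchymal stem cells (MSCs) that forms fat cells when treated with adipogenic hormones. The shControl cells, whose genotype the labels give as WT, were compared with shKDM4D, shNFIB and shMLL1 cells, which carried an shRNA in the pLKO.1 vector against the histone demethylase gene *Kdm4d*, the transcription factor gene *Nfib* or *Kmt2a*, the gene of the histone methyltransferase MLL1. The knockdown cells were puromycin-resistant clones, and which clone and which shRNA was sequenced is not given in the sources used here, so that an effect of the shRNA and a trait of a clone cannot be told apart. Every line was sequenced at day 0, before induction, and at day 5, after insulin, dexamethasone and isobutylmethylxanthine until day 2 and insulin without the other inducers for 2 more days. There was 1 library for each line and day, 8 in all, so that neither a change within 1 line nor a difference between lines has a replicate or a p-value. The average change with induction over the 4 lines was tested with the line as a block. The 95% intervals below are exact intervals for counting error only, calculated from the reads that stand behind the RPKM values, except that an interval for the difference between 2 changes is an approximation from the variance of the counts and is rough where a library has few reads. "Rose", "fell", "higher" and "lower" are used as calls only past 2-fold.

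These factors act at different steps of adipogenesis. The zinc finger proteins KLF4 and EGR2 (also called Krox20) act soon after the hormones are added and activate *Cebpb*. KLF5 works together with C/EBPβ and C/EBPδ to activate *Pparg*, KLF6 represses the preadipocyte gene *Dlk1*, and KLF15 is a glucocorticoid-responsive factor that acts later on *Pparg* and on the glucose transporter gene *Slc2a4*. EBF1, EBF2 and the zinc finger protein ZFP423 set the competence of precursor cells to become adipocytes. SREBP-1, the product of *Srebf1*, drives the genes of fatty acid synthesis, and LXRα, the product of *Nr1h3*, is a sterol-activated nuclear receptor that in turn activates *Srebf1* and the cholesterol exporters.

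RefSeq promoter windows of GRCm38.p6, each from 250 bases before to 50 bases after a start site, were found for 8 of the 10 genes, and a few stretches are shown, most of them chosen for an E-box. *Klf5* and *Ebf2* were not among them. The E-box CACGTG, which reads the same on both strands, was present in a window of 4 of the 8 genes, whereas 8.09% of 27025 genes and 7.15% of 32851 promoter windows hold it. The stretches below run 5′ to 3′ on the strand of the gene, with the E-box in capitals. For *Klf15*, which held the most matches, the 250 bases before the start site at chr6:90462326-90462575 (plus strand) are given. The *Klf4* stretch is chr4:55532625-55532684 (minus strand), that of *Klf6* is chr13:5861419-5861478 (plus strand) and that of *Egr2* is chr10:67535445-67535498 (plus strand). The 100 bases before a start site of *Nr1h3*, chr2:91195117-91195216 (minus strand), are printed as a promoter of the set without any of the motifs searched.
Klf15: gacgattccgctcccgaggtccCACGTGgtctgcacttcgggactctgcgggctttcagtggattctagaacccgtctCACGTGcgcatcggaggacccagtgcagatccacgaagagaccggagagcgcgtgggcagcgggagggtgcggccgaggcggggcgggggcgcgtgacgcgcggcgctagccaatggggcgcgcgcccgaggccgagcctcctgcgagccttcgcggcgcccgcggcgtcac
Klf4: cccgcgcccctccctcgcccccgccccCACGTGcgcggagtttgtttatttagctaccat
Klf6: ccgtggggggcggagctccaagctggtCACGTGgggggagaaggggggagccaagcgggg
Egr2: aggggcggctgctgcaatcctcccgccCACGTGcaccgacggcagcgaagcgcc
Nr1h3: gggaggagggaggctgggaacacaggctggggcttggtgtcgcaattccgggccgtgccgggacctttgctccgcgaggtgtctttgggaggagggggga
The *Klf15* window held 3 matches, the last of which spans the start site and lies outside the stretch printed. On both strands, the GC box GGGCGG was found in 6 of the 8 genes against 38.2% of all genes, and the CCAAT box CCAAT in 4 of 8 against 41.1%. The letters TATAAA (15.7% of all genes) and the cAMP response element TGACGTCA (2.03%) were found in none of the 8. The NFI motif TTGGCA was found in *Egr2* and in no other of the 8, against 16.1% of all genes. CCAAT on the opposite strand can share bases with TTGGCA, a match is not evidence of a bound site, and a missing match says only that the letters are not in this window.

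The libraries and labels were checked before the factors were compared. The libraries held between 15842200 and 38202600 mapped reads, and 3 reads on a gene with 1 kb of exons correspond to an RPKM of 0.0785 in the deepest and 0.189 in the shallowest library. *Nfib* and *Kmt2a* were lower in the lines that target them on both days, at log2 ratios to shControl cells between -2.33 and -1.37. *Kdm4d* had 13 reads in shControl and 4 reads in shKDM4D cells at day 5, and no more than 2 reads in either at day 0, too few to show a knockdown before induction. At day 5, 7 of 8 adipocyte markers were over an RPKM of 1 in shControl cells, with a summed RPKM of 749, against 4 markers and 25.8 in shKDM4D, none and 1.03 in shNFIB and 1 marker and 2.76 in shMLL1 cells. The marker *Lep* was at 0 in all 8 libraries. The MSC markers gave no common direction, with a summed RPKM of 279 to 1105 set mostly by *Ly6a* and *Itgb1*. One of them, *Thy1*, had an RPKM of 25.0 and 22.6 in shControl cells and of 11.8 and 11.1 in shMLL1 cells at day 0 and day 5, but no more than 0.139 in the shKDM4D and shNFIB libraries. The cartilage list summed to 71.7 to 193, mostly through *Sox9*, while *Col2a1* went from 24.5 to 2.99 in shControl and from 6.87 to 0.264 in shMLL1 cells. Bone markers summed to 2.68 to 8.17, and those of skeletal muscle, blood, endothelium and epithelium to no more than 1.72 in any library. The part of the clone and of the adipocyte content in the values below was not tested, and in such bulk RNA fewer cells of a type and less RNA per cell cannot be told apart.

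With induction, some of the factors rose and others fell. In shControl cells 5 of the 9 expressed factors rose from day 0 to day 5 (*Klf15*, *Egr2*, *Ebf1*, *Zfp423* and *Nr1h3*), against 13.0% of all expressed genes, and 2 fell (*Klf4* and *Klf5*), against 8.56% (21.6% either way). The same 5 rose and the same 2 fell in shKDM4D cells (12.8% and 8.44% of all genes, 21.2% either way), although on the ratio to *Gapdh* neither fall passed 2-fold (*Klf4* -0.71, *Klf5* -0.96). In shNFIB cells 4 rose (12.6%) and 1 fell (4.96%, 17.6% either way), without *Egr2* and *Klf4*. In shMLL1 cells 5 rose (20.4%) and *Klf5* alone fell (6.89%, 27.3% either way). All 7, 7, 5 and 6 of these calls had counting intervals that left out 0, and by that stricter rule 20.9%, 20.2%, 16.5% and 26.8% of the genes were past 2-fold. Some of these genes passed the expression limit only through the day on which they were high, *Klf5* through the day 0 libraries, *Egr2* and *Zfp423* through the day 5 libraries, *Klf15* through day 5 of shControl and shMLL1 cells and *Nr1h3* through day 5 of shControl cells, so that their share is a description. *Klf4*, *Klf6*, *Ebf1* and *Srebf1* passed the limit in all 8 libraries. Of these, *Ebf1* rose in every line, *Klf4* fell in shControl and shKDM4D cells, and *Klf6* and *Srebf1* were past 2-fold in none. On the log2(RPKM + 0.1) scale, the median change of the 9 factors was 2.03 in shControl and 1.92 in shMLL1 cells, 1.07 in shKDM4D cells and 0.63 in shNFIB cells, against medians of all expressed genes from 0.03 to 0.17.

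The average change from day 0 to day 5 over the 4 lines was tested with limma on log2(RPKM + 0.1), with the line as a block and 3 residual degrees of freedom. The lines are different knockdowns and stand in for replicates here. The error is the spread between them, which limma moderates with a variance trend over all expressed genes. The SE and p of a factor therefore do not rest on its own spread alone. By this test 8 of the 9 factors had an adjusted p under 0.05, 6 of them up (29.0% of all expressed genes) and 2 down (21.0%, 50.0% either way). Among these, *Klf5*, *Klf15*, *Egr2*, *Zfp423* and *Nr1h3* had passed the expression limit only through the day on which they were high. The count and the p-values of these genes are therefore a description. With quantile normalization the split over all genes turned, from 3337 up and 2415 down to 2575 up and 3169 down. The average log2 change was 2.60 ± 0.14 (SE) for *Zfp423* (limma adjusted p = 0.000413) and 2.41 ± 0.12 for *Ebf1* (adjusted p = 0.000325), up in 4 of 4 lines. It was 1.61 ± 0.29 for *Egr2* (adjusted p = 0.00582) and 2.53 ± 0.61 for *Klf15* (adjusted p = 0.0159), also up in 4 of 4 lines. *Klf5* (-1.92 ± 0.32, adjusted p = 0.00452) and *Klf4* (-0.95 ± 0.19, adjusted p = 0.00847) were down in 4 of 4 lines. These 6 factors kept an adjusted p under 0.05 with 1 added, on both other scales tried and without any 1 line. On the ratio to *Gapdh*, all genes of a library share the error of that gene. The p-values on that scale rest almost wholly on the moderated variance, so that a call kept there adds little. *Nr1h3* (2.21 ± 0.65, adjusted p = 0.0315) and *Srebf1* (0.41 ± 0.12, adjusted p = 0.0330) were up in 4 of 4 lines, but these 2 calls were fragile. Both were lost with quantile normalization (limma adjusted p = 0.0560 and 0.124), without shControl cells (0.103 and 0.125) and without shMLL1 cells (0.063 and 0.075). *Nr1h3* also lost the call with 1 added (limma adjusted p = 0.098) and without shNFIB cells (0.058). *Srebf1* also lost it on the ratio to *Gapdh* (limma adjusted p = 0.35) and without shKDM4D cells (0.094). *Klf6* (0.20 ± 0.12, adjusted p = 0.206) was up in 3 lines and down in shNFIB cells, without which its adjusted p was 0.0460.

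**Figure D1:**
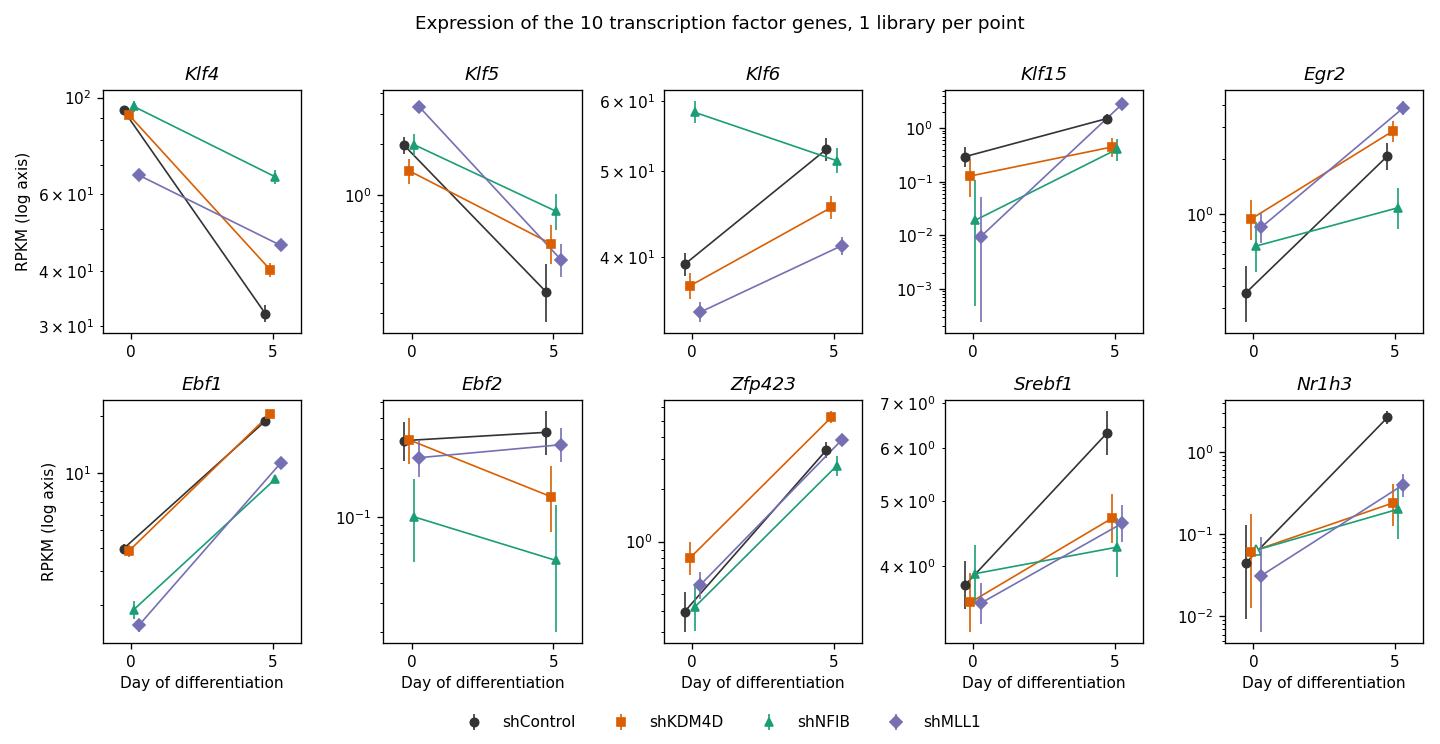
RPKM (log axis) of the 10 genes at day 0 and day 5 in each line, 1 library per point, with exact 95% counting intervals as bars and the open triangle for *Nr1h3* in shNFIB cells at day 0, where no read was counted, drawn at the level of 3 reads. *Zfp423* and *Ebf1* climb in all 4 lines, while *Nr1h3* separates shControl cells from the 3 knockdown lines at day 5.

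**Figure D2:**
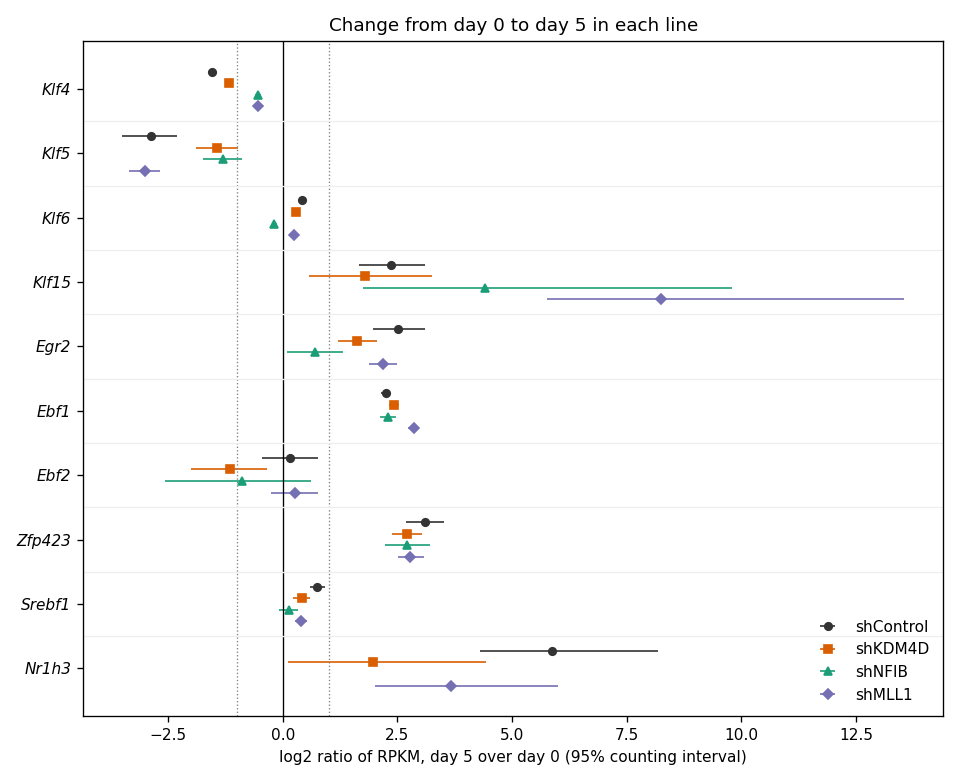
log2 ratio of RPKM at day 5 to day 0 for each gene and line, with 95% counting intervals as bars, a solid line at 0 and dotted lines at 2-fold. *Nr1h3* in shNFIB cells has no point because it had no read at day 0, and the widest bars belong to *Klf15* in shNFIB and shMLL1 cells, which had 1 read each at day 0.

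*Klf4* (chromosome 4 of GRCm38, from 55527143 to 55532466, minus strand) had the highest level of the 10 genes at day 0 in every line. Its RPKM went from 93.4 to 32.0 in shControl cells, from 91.3 to 40.3 in shKDM4D cells, from 95.4 to 65.8 in shNFIB cells and from 66.4 to 45.9 in shMLL1 cells. Every day 5 value was below every day 0 value, and the drop was steepest in shControl cells. There *Klf4* fell by 1.55 on the log2 scale (95% interval of the ratio -1.62 to -1.47), and in shKDM4D cells it fell by 1.18. On the ratio to *Gapdh* the change was -0.71 in shKDM4D and -1.10 in shNFIB cells, so that the line past 2-fold beside shControl cells was shNFIB. The log2 change was -0.54 in shNFIB and -0.53 in shMLL1 cells, each about 1.01 above that of shControl cells (0.91 to 1.11 and 0.92 to 1.10). At day 5 *Klf4* was higher in shNFIB than in shControl cells, by 2.06-fold (log2 1.04, 0.96 to 1.12), which lies just past the 2-fold limit and fell short of it with quantile normalization (0.96).

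*Klf5* (chromosome 14, from 99298691 to 99315036, plus strand) was a low gene that also went down with induction. The RPKM was 1.96 at day 0 and 0.269 at day 5 in shControl cells, 1.39 and 0.516 in shKDM4D, 1.98 and 0.801 in shNFIB, and 3.31 and 0.414 in the shMLL1 line. It fell in all 4 lines, with a log2 change of -2.87 in shControl (-3.50 to -2.30) and -2.999 in shMLL1 cells (-3.35 to -2.67), but -1.43 in shKDM4D and -1.30 in shNFIB cells. The shKDM4D change was -0.96 on the ratio to *Gapdh*, and with 1 added to each RPKM those of shKDM4D and shNFIB cells were -0.66 and -0.73, under 2-fold. The drop was smaller than in shControl cells by 1.44 (0.72 to 2.16) in shKDM4D and by 1.57 (0.87 to 2.26) in shNFIB cells. At day 5, when shControl cells had 27 reads of *Klf5*, it was 2.98-fold higher in shNFIB cells (log2 1.58, 0.91 to 2.28, and 0.51 with 1 added). The ratios of 0.94 in shKDM4D and 0.62 in shMLL1 cells stayed under 2-fold, and the interval of the latter included 0.

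*Klf6* (chromosome 13, from 5861482 to 5870394, plus strand) was high and nearly level on the RPKM scale. Its RPKM lay between 34.7 and 58.3 in all 8 libraries, and no ratio between days or lines passed 2-fold. The log2 change from day 0 to day 5 was 0.43 in shControl (0.37 to 0.49), 0.29 in shKDM4D and 0.25 in shMLL1 cells and -0.18 in shNFIB cells (-0.24 to -0.12). The shNFIB cells started from the highest level, 58.3 at day 0 against 39.3 in shControl cells, and reached 51.4 at day 5 against 52.9.

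*Klf15* (chromosome 6, from 90462576 to 90475238, plus strand) separated the shMLL1 cells from the other two knockdown lines. In shControl cells it had an RPKM of 0.296 at day 0 (22 reads) and 1.52 at day 5 (82 reads). The values were 0.128 (7 reads) and 0.448 (27 reads) in shKDM4D cells, and 0.0192 (1 read) and 0.407 (18 reads) in shNFIB cells. In shMLL1 cells they were 0.00938 (1 read) and 2.84 (302 reads). The shMLL1 library was thus the highest of all at day 5, while at day 0 its single read could not be told from that of shNFIB cells. *Klf15* rose in every line, by a log2 change of 2.36 (1.67 to 3.11) in shControl and 1.80 (0.57 to 3.25) in shKDM4D cells, of 4.41 (1.74 to 9.79) in shNFIB cells and of 8.24 (5.75 to 13.5) in shMLL1 cells. With 1 added to each RPKM the log2 change was 0.96 in shControl, 0.36 in shKDM4D and 0.47 in shNFIB cells, under 2-fold, and 1.93 in shMLL1 cells. Without it, the change in shMLL1 cells exceeded that in shControl cells by 5.88 (2.97 to 8.79). At day 5 it was lower than in shControl cells by 3.40-fold in shKDM4D (log2 -1.76, -2.45 to -1.12) and by 3.73-fold in shNFIB cells (-1.90, -2.72 to -1.15), whereas the log2 ratio in shMLL1 cells was 0.90 (0.54 to 1.27). The log2 ratio to shMLL1 cells was -2.66 for shKDM4D (-3.29 to -2.10) and -2.80 for shNFIB cells (-3.58 to -2.12), and between the latter lines it was 0.14 (-0.78 to 1.08).

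KLF15 is glucocorticoid-responsive, and the 8 genes of a list of glucocorticoid-induced genes, all of them expressed, are given beside it. At day 5, 4 of the 8 were lower in shKDM4D cells (against 4.57% of all expressed genes), 4 in shNFIB cells (5.67%) and 1 in shMLL1 cells (4.02%), and none was higher in any of the 3 lines. The median log2 ratio of the list was -0.79, -1.08 and -0.06, against 0.01, 0.09 and 0.07 over all expressed genes. *Fkbp5*, a co-chaperone of the glucocorticoid receptor, had a day 5 RPKM of 17.1 in shControl cells and of 5.48, 4.03 and 20.9 in shKDM4D, shNFIB and shMLL1 cells. *Zbtb16*, a zinc finger repressor, was at 2.33, 0.464, 0 and 0.988 in the same order. It passed the expression limit through shControl cells at day 5 alone, so that its part in these counts is a description. For *Errfi1*, an inhibitor of EGF receptor signaling, the values were 43.0, 21.1, 8.30 and 30.1, and for the kinase gene *Sgk1* they were 9.84, 4.63, 3.97 and 7.54. In shNFIB cells *Zbtb16* also had no read at day 0, so that no change with induction was detectable there. *Fkbp5* shared with *Klf15* a value in shMLL1 cells above that of shControl cells, at a log2 ratio of 0.29 (0.23 to 0.35). So did *Tsc22d3* (16.2 in shControl against 10.96, 13.3 and 26.8) and *Per1* (9.22 against 9.07, 4.99 and 11.8), which were named after their values were seen.

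Among 13 other KLF genes, 9 were expressed. In shControl cells 2 of them rose (*Klf2* and *Klf9*, against 13.0% of all expressed genes) and 1 fell (*Klf16*, against 8.56%), shares near those of all genes. At day 5 none of the 9 was past 2-fold in shKDM4D (6.44% of all expressed genes) or shNFIB cells (11.2%). *Klf10* alone was higher in shMLL1 cells (RPKM 15.2 against 6.38, with 5.25% of all expressed genes higher). These 4 genes were named after their values were seen.

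*Egr2* (chromosome 10, from 67535475 to 67542188, plus strand) was lowest before induction in shControl cells. Its RPKM was 0.365 at day 0 in these cells, against 0.934, 0.662 and 0.840 in the shKDM4D, shNFIB and shMLL1 lines. The day 5 values were 2.09, 2.86, 1.08 and 3.83. All day 5 values were above all day 0 values, but the shNFIB value by little. *Egr2* rose by a log2 change of 2.52 in shControl (1.96 to 3.11), 1.61 in shKDM4D and 2.19 in shMLL1 cells. In shNFIB cells the change was 0.70 (0.10 to 1.31), a difference of -1.81 from shControl cells (-2.61 to -1.02). At day 0 it was higher than in shControl cells by 2.56-fold in shKDM4D and 2.30-fold in shMLL1 cells, where 1.98% and 1.67% of all expressed genes were higher, and on the *Gapdh* scale both fell just short of 2-fold (log2 0.96 and 0.99). The log2 ratio of shNFIB cells at day 0 was 0.86 in RPKM and lay 0.64 higher on the *Gapdh* scale. There it was past 2-fold and the largest of the 3 lines. At day 5, log2 ratios to shControl cells were 0.45 for shKDM4D, -0.95 for shNFIB (-1.42 to -0.50) and 0.88 for shMLL1 cells, none past 2-fold, while the log2 ratio of shNFIB to shMLL1 cells was -1.83 (-2.25 to -1.43) and that of shKDM4D to shNFIB cells was 1.41 (0.98 to 1.85).

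The other expressed early growth response genes were also lowest in shNFIB cells at day 5. Of 4 expressed genes among *Egr1*, *Egr3*, *Egr4* and the NAB corepressors, which bind EGR proteins, none was lower at day 5 in shKDM4D (4.57% of all expressed genes) or shMLL1 cells (4.02%). In shNFIB cells 2 of the 4 were lower (5.67%). These were *Egr1*, with an RPKM of 35.8 in shControl and 30.4, 14.3 and 52.4 in shKDM4D, shNFIB and shMLL1 cells, and *Egr3*, with 4.05 against 4.55, 0.974 and 2.30; both were named after their values were seen. *Nab1* lay between 19.9 and 44.5 and *Nab2* between 30.1 and 51.7 in the 8 libraries. The corepressor genes were at most 0.37 log2 units from shControl cells on either day.

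The commitment factor *Ebf1* (chromosome 11, from 44617317 to 45008091, plus strand) rose 4.74-fold or more in every line, from a lower level in the shNFIB and shMLL1 cells. Its RPKM went from 3.97 to 18.8 in shControl cells, from 3.85 to 20.6 in shKDM4D cells, from 1.88 to 9.28 in shNFIB cells and from 1.56 to 11.2 in shMLL1 cells. The log2 change was 2.24 (2.14 to 2.35), 2.42, 2.30 and 2.85. In shNFIB cells it differed from that of shControl cells by 0.06 (-0.14 to 0.25), in shKDM4D cells by 0.17 (0.02 to 0.33) and in shMLL1 cells by 0.61 (0.45 to 0.77). At day 0 *Ebf1* was lower than in shControl cells by 2.11-fold in shNFIB (log2 -1.07, -1.26 to -0.90, and -0.43 on the ratio to *Gapdh*) and by 2.55-fold in shMLL1 cells (-1.35, -1.50 to -1.20, and -0.96 with 1 added). At day 5 it was lower by 2.03-fold in shNFIB cells (-1.02, -1.11 to -0.93), a call that ended on the ratio to *Gapdh* (-0.97) and with 1 added (-0.95). In shMLL1 cells the log2 ratio at day 5 was -0.74, but -1.10 on the ratio to *Gapdh*, and in shKDM4D cells it was 0.13. The shKDM4D cells did not pass 2-fold against shControl cells on either day.

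*Zfp423* (chromosome 8, from 87661810 to 87959595, minus strand) rose in all 4 lines. The RPKM was 0.395 and 3.38 at day 0 and day 5 in shControl cells, 0.803 and 5.23 in shKDM4D, 0.420 and 2.74 in shNFIB, and 0.560 and 3.86 in the shMLL1 line. The log2 change was 3.10 (2.70 to 3.52) in shControl cells and from 2.70 to 2.78 in the knockdown lines, and the difference from shControl cells included 0 in each, with intervals between -1.004 and 0.22. The shKDM4D cells had the highest level on both days, 2.03-fold above shControl cells at day 0 (log2 1.02, 0.53 to 1.52; 0.87 with 0.1 added to each RPKM and 0.62 on the ratio to *Gapdh*) and 0.63 log2 units above at day 5. On the *Gapdh* scale, the log2 ratio of 0.19 in shMLL1 cells at day 5 turned to -0.17. *Ebf2* (chromosome 14, from 67233292 to 67430918, plus strand) stayed under the expression limit, with 6 to 73 reads and an RPKM of 0.293 and 0.329 in shControl, 0.295 and 0.134 in shKDM4D, 0.101 and 0.0547 in shNFIB and 0.230 and 0.276 in shMLL1 cells. Both shNFIB values were the lowest of their day, and the interval of the log2 ratio to shControl cells left out 0 at day 0 (-2.54 to -0.65) and day 5 (-4.11 to -1.35). In shKDM4D cells it also left out 0 at day 5 (-1.30, -2.14 to -0.51), as did that of the log2 change with induction (-1.15, -2.00 to -0.34). At day 5 the shKDM4D and shNFIB lines, with 20 and 6 reads, did not differ beyond counting error (-0.08 to 2.89).

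Among 12 expressed genes of 17 partners of EBF and ZFP423, of BMP signaling and of precursor markers, none was past 2-fold in shKDM4D cells at day 5 (6.44% of all expressed genes). In shNFIB cells 1 was lower (5.67%) and 1 higher (5.54%), and in shMLL1 cells 1 was lower (4.02%). A count of 1 of 12 is near these shares. The lower gene in shNFIB cells was *Zfp521*, which encodes a relative of ZFP423 known to oppose adipogenesis. Its RPKM at day 0 was 8.24 in shControl cells, against 5.06, 2.53 and 4.31 in the shKDM4D, shNFIB and shMLL1 lines. The values at day 5 were 12.2, 13.3, 4.94 and 18.7. *Zfp521* was thus lowest in shNFIB cells on both days, at a log2 ratio to shControl cells of -1.70 at day 0 and -1.31 (-1.45 to -1.17) at day 5. The other 2 genes, named after their values were seen, were the BMP ligand gene *Bmp4*, higher in shNFIB cells (72.7 against 23.0), and the precursor marker *Pdgfra*, lower in shMLL1 cells (32.0 against 70.8).

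**Figure D3:**
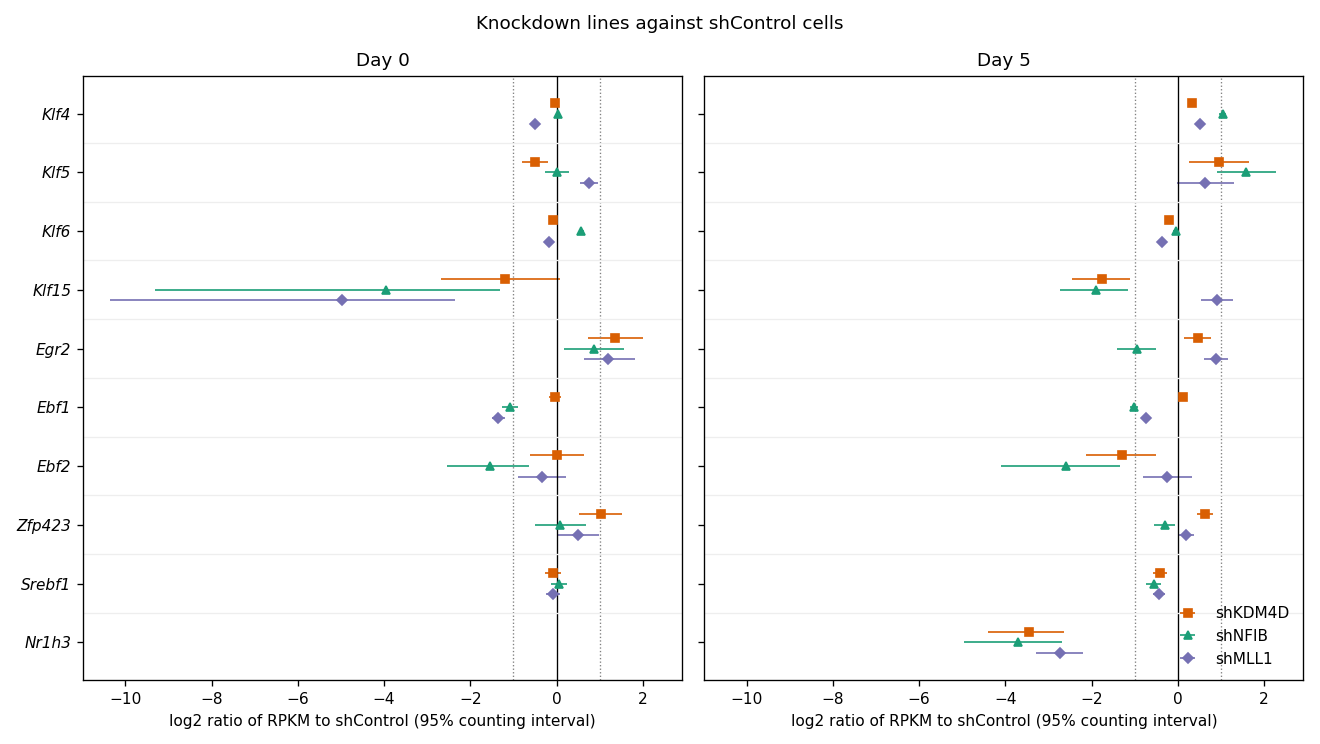
log2 ratio of RPKM in each knockdown line to shControl cells at day 0 (left) and day 5 (right), with 95% counting intervals as bars, a solid line at 0 and dotted lines at 2-fold. *Nr1h3* is not drawn at day 0, where no library had more than 3 reads, and at day 5 it lies at -3.71 to -2.73 in all 3 lines, while the *Klf15* points of shKDM4D and shNFIB cells lie on the other side of 0 from that of shMLL1 cells.

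Against shControl cells of the same day, 1 to 5 of the 9 factors were past 2-fold, compared with 5 to 7 between days. At day 0, 2 of the 9 factors were higher (1.98% of all expressed genes) and 1 was lower (4.26%) in shKDM4D cells, none was higher (2.95%) and 3 were lower (6.05%) in shNFIB cells, and 1 was higher (1.67%) and 2 were lower (7.43%) in shMLL1 cells. The count in shNFIB cells includes *Nr1h3*, which had no read there and 3 in shControl cells. On the ratio to *Gapdh*, the log2 ratios of shNFIB to shControl cells at day 0 lay 0.64 higher. *Egr2* and *Klf6* were then past 2-fold above shControl cells, and *Ebf1* was no longer called lower. The *Klf15* ratio in shKDM4D cells, 7 reads against 22, had an interval that included 0 (-2.68 to 0.07). At day 5, none was higher (1.88%) and 2 were lower (4.57%) in shKDM4D cells, 2 were higher (5.54%) and 3 were lower (5.67%) in shNFIB cells, and none was higher (5.25%) and 1 was lower (4.02%) in shMLL1 cells. Past 2-fold either way were 6.24%, 9.00% and 9.09% of all genes at day 0 and 6.44%, 11.2% and 9.28% at day 5, or, with an interval that leaves out 0, 4.81%, 7.49% and 7.88% at day 0 and 5.64%, 10.6% and 8.81% at day 5. With 1 added to each RPKM, no factor was past 2-fold at day 0 in any knockdown line. By the stricter rule the factors numbered 2, 2 and 3 at day 0 and 2, 5 and 1 at day 5. The 3 comparisons of each day share the same shControl library. The median log2 ratio of the factors at day 5 was 0.13 for shKDM4D, -0.55 for shNFIB and 0.19 for shMLL1 cells.

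*Nr1h3* (chromosome 2, from 91184061 to 91202834, minus strand), the LXRα gene, was the only one of the 10 factors that was lower than in shControl cells at day 5 in all 3 knockdown lines. Before induction it had 3 reads in shControl, 3 in shKDM4D, none in shNFIB and 3 in shMLL1 cells, so that its level at day 0 could not be compared between lines. At day 5 its RPKM was 2.63 (128 reads) in shControl cells, 0.239 (13 reads) in shKDM4D cells, 0.201 (8 reads) in shNFIB cells and 0.396 (38 reads) in shMLL1 cells. The shControl value stood apart from the other three. *Nr1h3* rose in every line, by a log2 change of 5.88 (4.30 to 8.17) in shControl cells, 1.97 (0.11 to 4.42) in shKDM4D cells and 3.67 (2.01 to 6.01) in shMLL1 cells. In shNFIB cells the day 5 level was 3.14-fold that of a floor of 3 reads at day 0, and the counting interval of the log2 change began at 1.01. With 1 added to each RPKM the log2 change was 1.80 in shControl, 0.22 in shKDM4D and 0.44 in shMLL1 cells. The change in shKDM4D cells differed from that of shControl cells by -3.91 (-6.36 to -1.46), while the difference of shMLL1 cells, -2.21, had an interval that included 0 (-4.58 to 0.16). At day 5 it was lower than in shControl cells by 11.01-fold in shKDM4D (log2 -3.46, -4.41 to -2.64), by 13.1-fold in shNFIB (-3.71, -4.96 to -2.69) and by 6.64-fold in shMLL1 cells (-2.73, -3.29 to -2.20). No pair of knockdown lines differed beyond counting error at day 5. *Nr1h3* passed the expression limit through shControl cells at day 5 alone, and the summed adipocyte markers given above were highest in that same library.

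The gene of the related receptor LXRβ, *Nr1h2*, had an RPKM between 14.2 and 17.4 in all 8 libraries and no log2 ratio beyond 0.22 in size between days or against shControl cells. In a list of partners and targets of LXR with 10 expressed genes of 11, 7 rose from day 0 to day 5 in shControl cells (13.0% of all expressed genes) and 6 in each knockdown line (12.8%, 12.6% and 20.4%), and 1 fell in shKDM4D cells (8.44%). At day 5, 2 of the 10 were lower in shKDM4D cells (4.57%), 2 in shMLL1 cells (4.02%) and 4 in shNFIB cells (5.67%), and none was higher. *Abca1*, a cholesterol exporter gene, had a day 5 RPKM of 26.5 in shControl cells against 10.1, 6.46 and 9.66 in shKDM4D, shNFIB and shMLL1 cells, log2 ratios of -1.39 (-1.46 to -1.32), -2.04 and -1.46. *Abcg1*, another cholesterol exporter gene, named after its values were seen, had 4.95 against 9.86, 0.916 and 4.35, and in shKDM4D cells lay just under 2-fold above shControl cells (log2 0.995, 0.87 to 1.13). For *Apoe*, the apolipoprotein E gene, the values were 31.7 against 31.6, 8.18 and 8.88, so that shKDM4D cells lay at the level of shControl cells (log2 ratio of 0.00, -0.11 to 0.11). *Smpdl3a*, a sphingomyelinase-like gene, was at 1.95 against 0.0224, 0.0611 and 3.82. Thus *Abca1* alone of the list's named genes was lower in all 3 lines, as *Nr1h3* was.

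*Srebf1* (chromosome 11, from 60199089 to 60222581, minus strand) had like levels before induction and its largest change in shControl cells, without passing 2-fold in any line. Its RPKM at day 0 was 3.75 in shControl cells, against 3.53, 3.90 and 3.52 in the shKDM4D, shNFIB and shMLL1 lines, and each ratio to shControl cells had an interval that included 0. The values at day 5 were 6.31, 4.71, 4.27 and 4.63. The shControl value was the highest, and no pair of knockdown lines differed beyond counting error. The log2 change was 0.75 (0.59 to 0.91) in shControl and 0.42 (0.23 to 0.60) in shKDM4D cells, 0.13 (-0.07 to 0.34) in shNFIB cells and 0.40 (0.26 to 0.53) in shMLL1 cells. On the ratio to *Gapdh* the order turned, with 0.88 in shKDM4D against 0.78 in shControl cells, and the shNFIB change was -0.43. Against shControl cells, the log2 ratio at day 5 was -0.42 (-0.58 to -0.26), -0.56 (-0.75 to -0.38) and -0.45 (-0.59 to -0.30). Reads were counted over all exons of the gene, so that the SREBP-1a and SREBP-1c transcripts are not told apart, and 109 of its 5634 exon bases are shared with *Rai1* on the other strand, which had an RPKM of 2.90 to 4.21.

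Of 15 lipogenic targets of SREBP-1, 13 were expressed, and at day 5, 4 of them were lower in shKDM4D cells (4.57% of all expressed genes), 5 in shMLL1 cells (4.02%) and 5 in shNFIB cells (5.67%), while 1 was higher in shNFIB cells (5.54%). *Scd1*, which encodes the stearoyl-CoA desaturase, had a day 5 RPKM of 272 in shControl cells against 22.0, 10.99 and 13.4 in shKDM4D, shNFIB and shMLL1 cells, log2 ratios from -4.63 to -3.63. *Fasn*, the fatty acid synthase gene, was at 31.2 against 11.7, 14.8 and 12.9. *Thrsp*, a regulator of lipogenesis, was at 2.60 against 0, 0.0288 and 0.0240, and *Pnpla3*, a lipase-like gene, was at 1.20 against 0.0299, 0 and 0. Both *Thrsp* and *Pnpla3* passed the expression limit through shControl cells at day 5 alone, so that their part in these counts is a description. The median log2 ratio of the 13 genes was smaller, at -0.33 for shKDM4D, -0.24 for shNFIB and -0.55 for shMLL1 cells. Genes of the SREBP processing machinery were not past 2-fold in shKDM4D, shNFIB or shMLL1 cells at day 5 (6.44%, 11.2% and 9.28% of all expressed genes). With induction, 2 of the 6, named for their role, fell in shControl (8.56%), shKDM4D (8.44%) and shMLL1 cells (6.89%). *Srebf2*, which encodes the cholesterol-side relative SREBP-2, went from 31.1 to 8.12 in shControl cells, from 20.9 to 9.59 in shKDM4D, from 17.1 to 12.7 in shNFIB and from 28.6 to 11.5 in shMLL1 cells. *Insig1*, which retains SREBP precursors in the endoplasmic reticulum, went from 29.8 to 13.3, from 13.8 to 6.87, from 16.4 to 10.1 and from 23.1 to 8.22. In shControl cells, *Srebf1* and *Srebf2* thus had log2 changes of opposite sign.

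**Figure D4:**
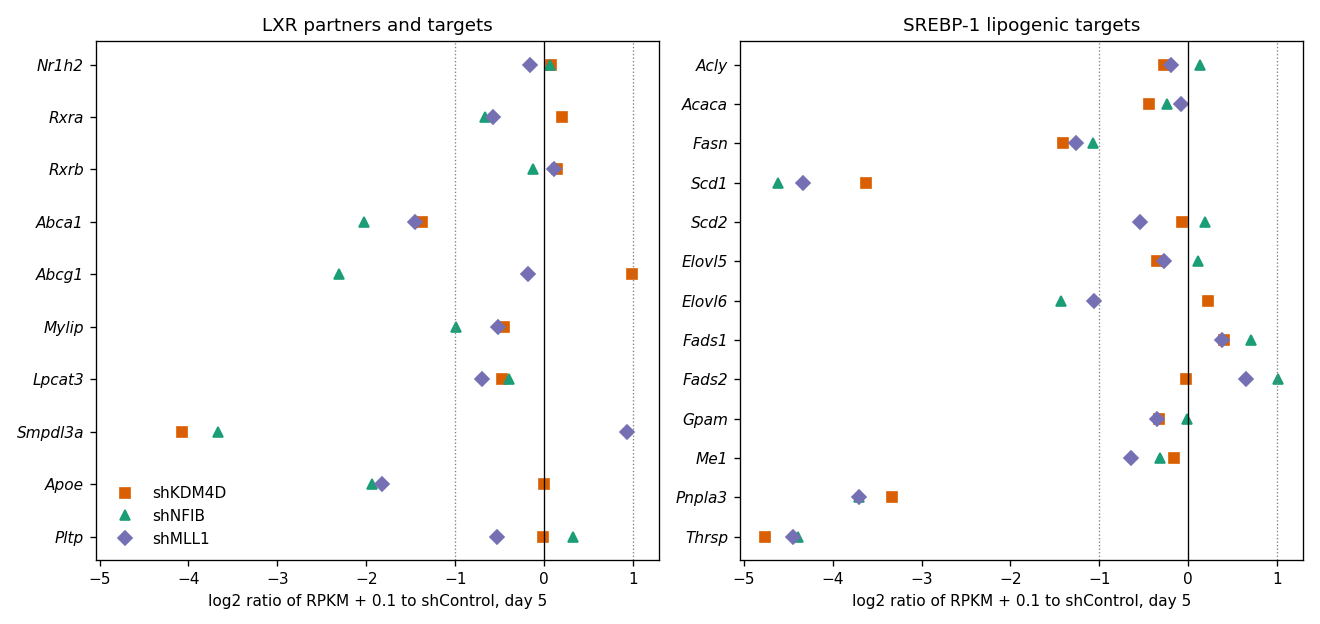
log2 ratio of RPKM + 0.1 in each knockdown line to shControl cells at day 5 for the expressed genes of the LXR list (left) and of the SREBP-1 list (right), with a solid line at 0 and dotted lines at 2-fold, each point 1 library against 1 library. *Scd1*, *Pnpla3*, *Thrsp* and *Fasn* lie past the 2-fold line in all 3 knockdown lines, as *Abca1* does, while *Nr1h2*, *Acly* and *Acaca* lie near 0.

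*Pparg* and *Cebpa* encode the core adipogenic factors PPARγ and C/EBPα. *Pparg* had a day 5 RPKM of 21.7 in shControl cells and of 8.21, 7.48 and 7.22 in shKDM4D, shNFIB and shMLL1 cells, and *Cebpa* had 14.0 against 5.42, 3.66 and 2.42. Both were lower in all 3 lines, the pattern that *Nr1h3* showed among the factors, whereas *Ebf1*, *Zfp423*, *Klf6* and *Egr2* were not lower in all 3.

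By level, *Klf4* and *Klf6* were the 2 most abundant of the 10 genes in every library, followed at day 5 by *Ebf1*. In shControl cells at day 0 the order after *Klf4* and *Klf6* was *Ebf1*, *Srebf1*, *Klf5*, *Zfp423*, *Egr2*, *Klf15*, *Ebf2* and *Nr1h3*. There the counting intervals of *Ebf1* and *Srebf1* overlapped, as did those of *Zfp423*, *Egr2*, *Klf15* and *Ebf2*, so that their order is not called. Genes whose intervals overlap can still differ, and the ratio between 2 genes was not tested. At day 5 it was *Klf6*, *Klf4*, *Ebf1*, *Srebf1*, *Zfp423*, *Nr1h3*, *Egr2*, *Klf15*, *Ebf2* and *Klf5*. Of its neighbours, the intervals of *Zfp423* and *Nr1h3*, *Nr1h3* and *Egr2*, *Egr2* and *Klf15*, and *Ebf2* and *Klf5* overlapped, and their order is not called either.

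Over the 8 libraries, the pattern of each of the 9 expressed factors, without *Ebf2*, was compared by Pearson's r of log2(RPKM + 0.1). It was set against 7935 genes that had an RPKM of at least 5 in at least 1 library. The 8 libraries share 2 days and 4 lines, and the values are given as a description. The most similar genes were *Enoph1*, *Ibtk* and *Cisd2* for *Klf4*, with r from 0.979 to 0.984, *Elavl1*, *Ptbp1* and *Rnps1* for *Klf5* (0.989 to 0.992), and *Sap18*, *Arf2* and *Tmem30a* for *Klf6* (0.952 to 0.977). They were *Gabarap*, *Ttc1* and *Hint2* for *Klf15* (0.976 to 0.981), and *Per1*, *Nek6* and *Slc7a6os* for *Egr2* (0.949 to 0.964). For *Ebf1* they were *Agtrap*, *Plpp1* and *Thra* (0.993 to 0.995), and for *Zfp423* *Pid1*, *Osgin2* and *Fbxo36* (0.983 to 0.992). *Srebf1* was followed most closely by *Aldh6a1*, *Pcx* and *Nt5dc2* (0.975 to 0.985), and *Nr1h3* by *Mcrip2*, *Ubd* and *Lipe*, the hormone-sensitive lipase gene (0.974 to 0.980). Among the factors themselves, r was 0.95 between *Srebf1* and *Nr1h3*, 0.93 between *Ebf1* and *Zfp423* and -0.95 between *Klf5* and *Ebf1*.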

How the data were processed

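RNA-seq libraries of C3H10T1/2 cells, 1 for each of 4 lines at day 0 and day 5, were sequenced on a HiSeq 2500. Mapping to GRCm38 was done by the authors in CLC Genomics Workbench 11.0.1, at costs of 2 for a mismatch and 3 for an insertion or a deletion and with 0.8 as the fraction of length and of similarity, and RPKM values per gene symbol were deposited. The strand setting of the counting is not given in the sources used here. The methods describe quantile normalization, which the deposited values do not show, and it was tried as an alternative.

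From these values, whole reads were recovered with the exon lengths of GENCODE M21 (40823 of 41325 symbols matched, 96.2% to 96.6% of values within 0.02 of a whole read), which gave the mapped reads per library and exact 95% intervals of ratios. Expressed genes had an RPKM over 1 in at least 1 library, and a call was a ratio of RPKM past 2-fold without a pseudocount. List medians and correlations used log2(RPKM + 0.1). A floor of 3 reads was used for genes at 0. Intervals and floors cover counting error only, and no test within a line or between lines was made, since each condition has 1 library. The average change over the 4 lines was tested with limma 3.58.1 (log2(RPKM + 0.1), line as block, variance moderated with a trend, Benjamini-Hochberg over 11513 genes), a test added after the values were seen. The calculations were tested on simulated data (Python 3.11.15, numpy 2.4.6, pandas 2.3.3, scipy 1.17.1, matplotlib 3.10.9).

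All 10 factors are named. From each of 8 pathway lists, up to 4 genes past 2-fold in the same direction in at least 2 of the 3 knockdown lines at day 5 are named, with known partners, the targeted genes and the 3 genes most correlated with each expressed factor. Members and lists were chosen with earlier results of these data known. Alternatives were pseudocounts of 0.1 and 1, quantile and median-of-ratios scaling, the ratio to *Gapdh*, other expression and fold limits, and a total without 2 genes that resemble ribosomal RNA.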

Additional observations from a re-analysis of the deposited data

Results flagged for a closer look

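A factor is listed here where its ratio had opposite signs under the same contrast, each with a counting interval that left out 0. There was 1 library per condition, and the difference was not tested between replicates. The log2 ratio of *Klf15* in shMLL1 to shControl cells was -4.98 at day 0, where shMLL1 cells had 1 read, and 0.90 at day 5. For *Klf4* the ratio of shMLL1 to shControl cells was -0.49 at day 0 and 0.52 at day 5. For *Klf5*, shKDM4D against shControl cells gave -0.50 at day 0 and 0.94 at day 5. *Egr2* in shNFIB cells was at 0.86 relative to shControl cells at day 0 and at -0.95 at day 5. The log2 change of *Klf6* from day 0 to day 5 was 0.43 in shControl and -0.18 in shNFIB cells.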

How the results depend on the processing

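The number of factors past 2-fold was recounted under each alternative. Adding 1 to each RPKM moved most counts, from 7 to 3 (shKDM4D) and from 5 to 2 (shNFIB) between days, from 3 to 0 in each knockdown line at day 0, and at day 5 from 2 to 1 in shKDM4D and from 5 to 2 in shNFIB cells. Adding 0.1 or taking the ratio to *Gapdh* left 1 of the 3 factors in shKDM4D cells at day 0, and the ratio to *Gapdh* gave 2 in place of 1 in shMLL1 cells at day 5. A fold limit of 3 left 0 in shKDM4D and 1 in shMLL1 cells at day 0 and 2 in shNFIB cells at day 5, and a limit of 1.5 gave 4 in shKDM4D and 5 in shMLL1 cells at day 5. All other counts stayed within 1.5 times the value reported, also when the counting interval had to leave out 0, a rule added after the data were seen. Such a count can still hold other factors. In shNFIB cells at day 0, the ratio to *Gapdh* brought in *Egr2* and *Klf6* as higher and removed *Ebf1*. Of 98 single ratios, 40 moved by more than their counting interval with 1 added, 38 with *Gapdh*, 17 with quantile normalization, 10 with median-of-ratios scaling, 9 without the genes that resemble ribosomal RNA and 4 with 0.1 added. Of the ratios whose interval left out 0, the *Zfp423* ratio in shMLL1 cells at day 5 was the only one to change sign under another scaling (0.19 to -0.17 with *Gapdh*). The *Gapdh* scale moved the median of all genes by -0.56 to 0.64. Paired by line, the average change with induction was tested with limma, which was added after the data were seen. It called 8 of 9 factors, 6 to 7 with 1 added, quantile normalization or the ratio to *Gapdh*, and 6 to 8 with 1 line left out. Single conditions have 1 library and could not be paired. At these depths the levels of *Nr1h3* and *Klf15* at day 0 rest on 0 to 22 reads.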
